A study of Rattus norvegicus with 8 samples.

Results

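The genes described here are 9 enzymes and regulators of mitochondrial fatty acid oxidation, Cpt1a, Cpt2, Acadvl, Acadl, Acadm, Hadha, Hadhb, Ppara and Ppargc1a. They were chosen by name for their place in the pathway, with earlier results of these data known. Of these 9 genes, 8 were among the 13543 gene rows of the named expression table, and all 8 were among the 13250 genes tested. Ppargc1a had no row under that name. The table kept only rows whose 8 counts summed to more than 80, so Ppargc1a is given as below that count filter, and no level is stated for it.

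Long-chain fatty acids enter mitochondria as carnitine esters, formed on the outer membrane by CPT1 and turned back into acyl-CoA inside by CPT2. Each turn of beta-oxidation then shortens the chain through an acyl-CoA dehydrogenase, a hydratase, a hydroxyacyl-CoA dehydrogenase and a thiolase, and delivers electrons to the respiratory chain. PPARα is a lipid-sensing nuclear receptor that drives many of these genes with its partner RXRα, and PGC-1α, encoded by Ppargc1a, is a coactivator of PPARα and a driver of mitochondrial biogenesis. The nucleus pulposus (NP) is the poorly vascularized core of the intervertebral disc, and its cells rely mainly on glycolysis.

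SIRT6 is a nuclear deacylase that acts on histone H3. To ask how its loss affects transcription, primary NP cells of rats were transduced with lentiviruses carrying ShRNA against Sirt6 (Sirt6-KD, libraries S5 to S8) or a control ShRNA (Sirt6-Ctrl, libraries S1 to S4), with n = 4 in each group. The cells were of Rattus norvegicus, Sprague Dawley adults by the study's methods, and both groups were grown in DMEM with 10% FBS. By the same methods the knockdown used a mixture of ShRNA clones and transduced cells were selected with puromycin. These methods describe culture in low oxygen before protein was extracted to check the knockdown. For the cultures used for RNA they state no oxygen level. Each library was a culture of cells, so fewer cells of a type and less RNA per cell cannot be told apart. The labels do not say which Sirt6-KD and Sirt6-Ctrl cultures came from the same rat.

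Total counts ranged from 31994838 to 40124813 per library, and 1 read was worth 0.0242 to 0.0309 CPM (counts scaled by library size with TMM factors). Sirt6 was lower in every Sirt6-KD library, at 20.6 ± 1.07 CPM against 52.7 ± 3.78 CPM for the controls (SD, n = 4), a log2 fold change of -1.35 (edgeR's quasi-likelihood test, adjusted p = 0.000713), and -1.27 (0.00213) without S1 and S2. S1 and S2 stood apart from the other libraries, with 6.27% and 9.80% of their counts on ERCC spike-ins, synthetic RNAs of known amount, against 2.97% to 3.08% in S3 and S4 and 2.15% to 2.47% in Sirt6-KD. The spike-in share did not overlap between the groups (two-sided exact permutation test, p = 0.0286, which no comparison of 4 libraries with 4 can go below), and its part in the results was not tested. Members, called genes and list counts are therefore given with and without S1 and S2. Scaling the libraries by their spike-ins in place of TMM moved the median of all log2 fold changes from -0.016 to 0.94, and left 4 genes (0.0302%) called lower and 22 (0.166%) called higher, none of them a member, against 1416 and 1063 with TMM. A gene was called when its adjusted p was under 0.05 and its fold difference exceeded 1.5. Sirt6 itself stood at -0.36 under the spike-in scaling (edgeR's quasi-likelihood test, adjusted p = 0.568).

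Of the 15 NP marker symbols listed, 8 were tested, and Krt18, Krt19, Shh, Noto, Col2a1 and both symbols of brachyury (T and Tbxt) had no row under those names. The summed level of the NP markers was 102 to 141 CPM for Sirt6-Ctrl and 118 to 146 CPM in Sirt6-KD. Behind this sum, Krt8 (-1.32) and the carbonic anhydrase gene Car3 (-2.70) were called lower, while Car12, not called, was at 28.4 ± 31.0 CPM and 82.1 ± 10.8 CPM. Leaving out S1 and S2, Car3 was still called (-2.52) and Krt8 was not (-0.69). The markers of annulus fibrosus and fibroblasts, led by the collagen gene Col1a1, summed to 14528 to 27479 CPM for Sirt6-Ctrl and 8671 to 18518 CPM in Sirt6-KD. Of these, Col3a1 (-1.38) and Scx (-1.20) were called lower (-1.51, called, and -1.37, not called, without S1 and S2). Mkx was at -0.48 and was called lower only without S1 and S2 (-1.05). Pdgfra went the other way, at 0.82 and at 0.43 without S1 and S2, and was not called in either fit. The adipocyte and hepatocyte markers had no row at all. Of the muscle markers only Acta1 had a row, and the sum was 1.03 to 7.999 CPM for Sirt6-Ctrl and 2.12 to 15.2 CPM in Sirt6-KD. Macrophage markers summed to 11.9 to 29.7 CPM and 15.0 to 23.8 CPM, and endothelial markers to at most 0.592 CPM. Most of the macrophage sum was Cd14, with means of 19.7 and 15.1 CPM, while Ptprc, Adgre1 and Lyz2 had no row. The part of these cells in the results was not tested.

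The upstream regions of 4 of the genes are shown, and no test below uses them. They are the interval between Hadha and Hadhb, whose products form a single protein complex, and the windows of Acadm, which passed the test, and Ppara, the receptor. The sequences are those of RefSeq on the assembly GRCr8, which differs from the build named for the counts (Rnor_6.0). Hadhb and Hadha lie head to head, with 243 bases between the gene spans, so a single interval lies upstream of both. The starts used for the motif search are 300 bases apart, and their upstream windows share 200 bases. The bases next to the Hadhb start are not in the printed interval. They hold 1 of the 2 GC boxes counted for Hadhb, at 31 bases before its start. The interval is chr6:31907558-31907800 on the plus strand, the Acadm window is chr2:245542865-245543114 on the minus strand, and the Ppara window is chr7:118712357-118712606 on the plus strand, the last 2 being the 250 bases before the start of the gene. Capitals mark a GC box (GGGCGG, or CCGCCC where it lies on the other strand) or a cyclic AMP response element (TGACGTCA).
Hadhb-Hadha interval: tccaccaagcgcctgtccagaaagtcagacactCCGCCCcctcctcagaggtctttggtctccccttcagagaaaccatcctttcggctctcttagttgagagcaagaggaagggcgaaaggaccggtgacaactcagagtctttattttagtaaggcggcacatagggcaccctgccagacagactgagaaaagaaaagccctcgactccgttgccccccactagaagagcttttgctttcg
Acadm: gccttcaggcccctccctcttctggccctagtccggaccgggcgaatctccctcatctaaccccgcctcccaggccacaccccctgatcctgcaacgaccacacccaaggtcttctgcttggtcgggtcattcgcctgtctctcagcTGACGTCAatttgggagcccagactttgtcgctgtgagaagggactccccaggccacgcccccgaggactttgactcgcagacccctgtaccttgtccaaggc
Ppara: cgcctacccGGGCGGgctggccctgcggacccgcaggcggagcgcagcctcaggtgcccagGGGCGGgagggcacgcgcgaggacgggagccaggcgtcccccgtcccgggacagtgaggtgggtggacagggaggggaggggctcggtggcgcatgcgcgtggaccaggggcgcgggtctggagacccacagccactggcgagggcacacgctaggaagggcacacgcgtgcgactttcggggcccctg
Of the 9 genes, 8 had a promoter in the RefSeq table, and Acadl did not. Over the 250 bases upstream, searched on both strands, the GC box occurred in 4 of these 8 promoters (Cpt2, Hadha, Hadhb and Ppara) and in 30.5% of all 33469 promoters. The GC box of Hadha and 1 of those of Hadhb are the same bases, because the windows of these genes overlap. The cyclic AMP response element occurred in 2 (Acadm and Ppargc1a), against 1.59% of all promoters. The direct repeat of AGGTCA with 1 base of any kind between the copies, a binding sequence of PPAR and RXR pairs, was in none of the 8 windows and in 0.0508% of all promoters. The motif AGGTCA alone, which is also contained in that repeat, was in 1 window (Acadvl) and in 14.1% of all promoters, and TCAAGGTCA, which contains AGGTCA and is bound by estrogen-related receptors, was in none, against 0.388%. CCAAT was in none, against 34.0%. The motifs were chosen after the sequences were seen, so no enrichment can be read from these shares. The matches are descriptions of letters in a short window.

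Of the 8 genes tested, 1 was called lower in Sirt6-KD, where 10.7% of all genes tested were, and none was called higher, where 8.02% were. The gene called lower was Acadm. With no fold threshold, Hadha was also lower, which makes 2 genes lower and none higher, against 12.8% and 9.11% of all genes. The 8 log2 fold changes had a median of -0.05, against -0.016 over all genes, and ran from -0.93 to 1.76. Leaving out S1 and S2, the same gene, Acadm, was called lower and none was called higher, where 5% and 5.71% of all genes were, and the median was 0.13. With 1 of 8 called, the share was close to that of all genes.

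**Figure D1:**
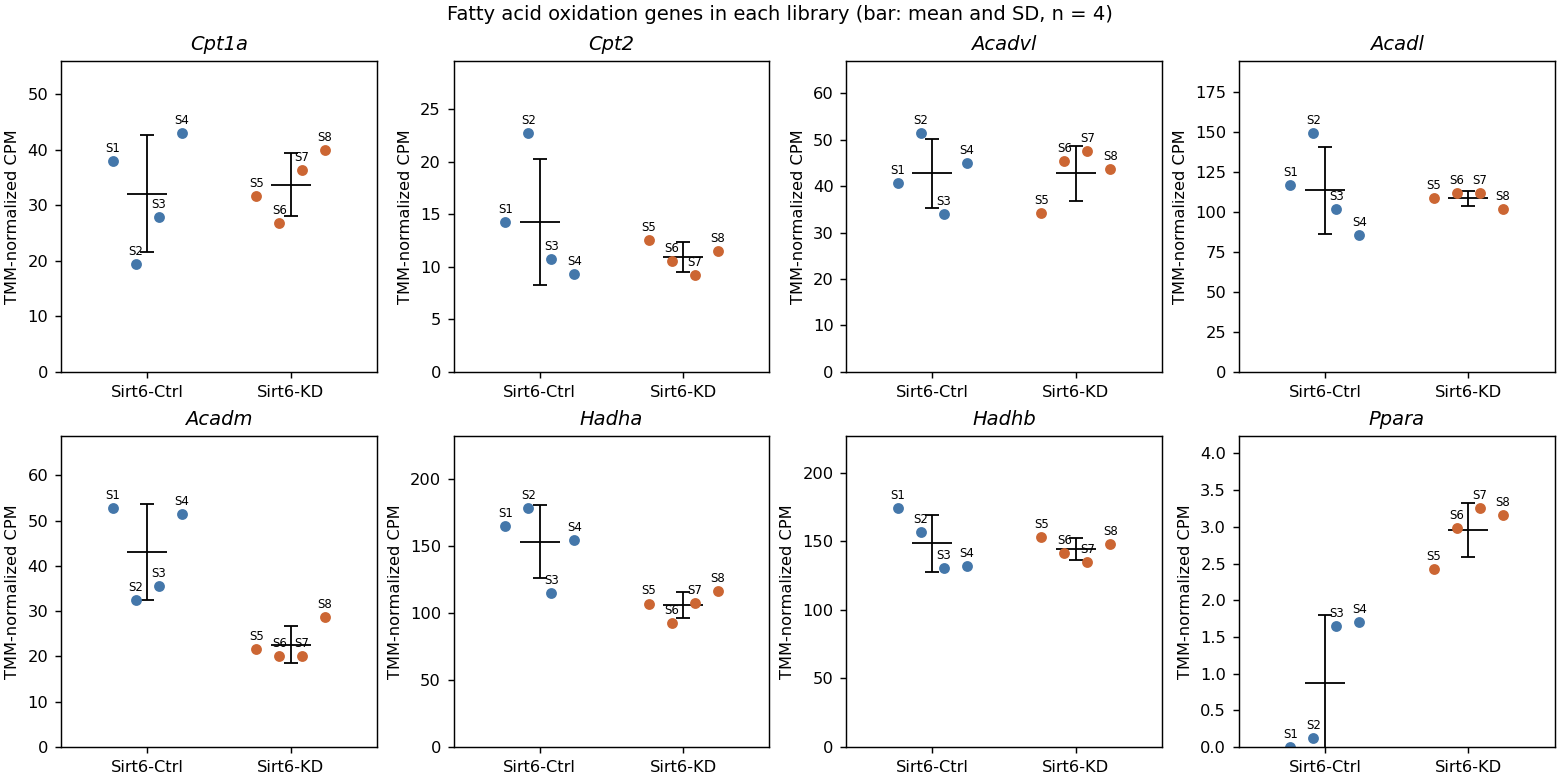
Level of each of the 8 tested genes in every library, in TMM-normalized CPM on axes that start at 0, with Sirt6-Ctrl (S1 to S4) in blue and Sirt6-KD (S5 to S8) in orange. Horizontal lines are means and error bars SDs over 4 libraries, that of Ppara in Sirt6-Ctrl cut at 0; all Acadm points of Sirt6-KD lie below those of Sirt6-Ctrl (at most 28.8 against at least 32.4), and all Ppara points lie above (at least 2.43 against at most 1.70).

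The carnitine palmitoyltransferases showed no difference beyond the spread of the libraries. Cpt1a (ENSRNOG00000014254), the liver isoform of the enzyme that commits long-chain fatty acids to mitochondrial entry, stood at 38.0, 19.4, 28.0 and 43.1 CPM in S1 to S4 and at 31.7, 26.8, 36.3 and 39.9 CPM in S5 to S8. The Sirt6-KD libraries all lay inside the range of Sirt6-Ctrl. The log2 fold change was 0.07 ± 0.25 (SE), with a 95% interval of -0.47 to 0.61 (edgeR's quasi-likelihood test, adjusted p = 0.872), and without S1 and S2 it was -0.07 (interval -0.55 to 0.42). Cpt2 (ENSRNOG00000012443), the inner membrane partner, stood at 14.3, 22.7, 10.8 and 9.28 CPM in Sirt6-Ctrl and at 12.5, 10.5, 9.23 and 11.5 CPM in Sirt6-KD. S2 was the highest library for Cpt2 and the lowest for Cpt1a. The log2 fold change of Cpt2 was -0.38 ± 0.30 (SE, interval -1.04 to 0.27, adjusted p = 0.383 in the same test), and it turned to 0.14 (interval -0.34 to 0.61) without S1 and S2.

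The 3 acyl-CoA dehydrogenases act on chains of different length, and of these Acadm was the one called. Acadm (ENSRNOG00000009845), the medium-chain acyl-CoA dehydrogenase, was measured at 52.8, 32.4, 35.5 and 51.5 CPM in Sirt6-Ctrl and at 21.6, 20.1, 20.05 and 28.8 CPM in Sirt6-KD. The groups did not overlap, as was so for 15.6% of all genes in this direction. Its mean was 43.1 ± 10.6 CPM for Sirt6-Ctrl but 22.6 ± 4.15 CPM after knockdown (SD, n = 4), and it fell by 0.93 on the log2 scale (SE 0.21, interval -1.39 to -0.46, edgeR's quasi-likelihood test, adjusted p = 0.0141), 1.90-fold. The change was also -0.93 without S1 and S2 (SE 0.20, interval -1.39 to -0.47, adjusted p = 0.0220 in the same test). When single libraries were left out the log2 fold change ran from -1.03 to -0.79. The call was then lost without S1 (-0.79, adjusted p = 0.0524), without S6 (-0.88, 0.0543) and without S7 (-0.87, 0.0516). Scaled by spike-ins, the log2 fold change of Acadm was 0.0041, which is 0.94 below the median of all genes under that scaling.

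Acadvl and Acadl, the very long-chain and long-chain enzymes, were not called. Acadvl (ENSRNOG00000018114) stood at 40.7, 51.5, 34.0 and 44.9 CPM in S1 to S4 and at 34.2, 45.4, 47.6 and 43.8 CPM in S5 to S8, with group means of 42.8 ± 7.36 and 42.7 ± 5.91 CPM. The ranges of Acadvl overlapped almost wholly, and the log2 fold change of -0.00088 had an interval of -0.38 to 0.38. Acadl (ENSRNOG00000012966) stood at 116.7, 149.5, 102.1 and 85.9 CPM in Sirt6-Ctrl and at 108.8, 111.8, 112.0 and 101.7 CPM in Sirt6-KD. The Sirt6-KD libraries of Acadl lay within the spread of Sirt6-Ctrl, with S2 highest and S4 lowest of all. Its log2 fold change was -0.06 (interval -0.43 to 0.30), and 0.22 (interval -0.05 to 0.49) without S1 and S2. For both genes the intervals with all 8 libraries left out a fold change above 1.5 in either direction.

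**Figure D2:**
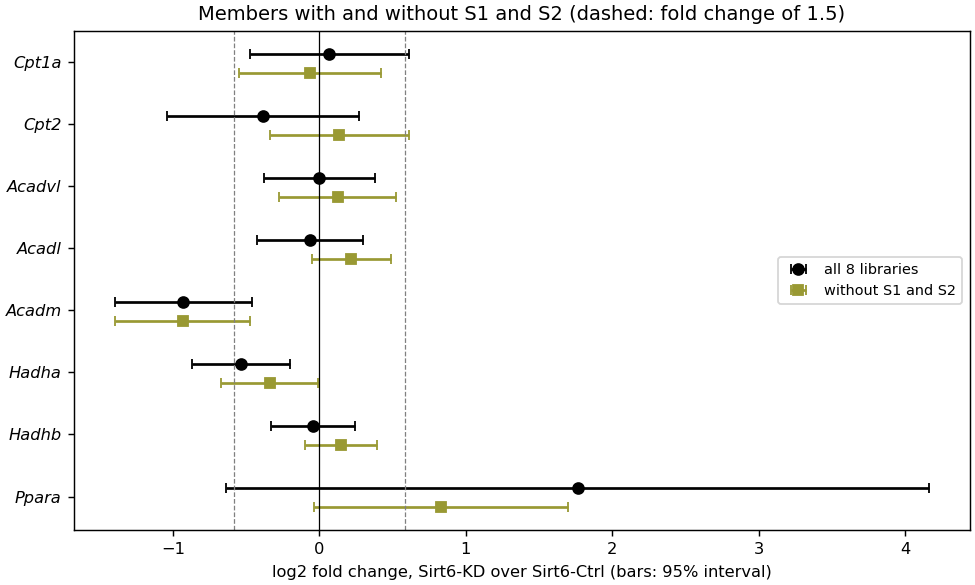
Log2 ratio of Sirt6-KD to Sirt6-Ctrl with its 95% interval for the 8 tested genes, with all 8 libraries (black circles) and without S1 and S2 (olive squares); dashed lines mark a fold change of 1.5. Acadm lies at -0.93 in both fits, Hadha moves from -0.53 to -0.34, and Ppara from 1.76 to 0.83 with a much narrower interval.

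Hadha and Hadhb encode the alpha and beta subunits of the mitochondrial trifunctional protein, which carries out the last 3 steps of long-chain beta-oxidation. The interval printed above lies upstream of both, and its part in their values was not tested. Hadha (ENSRNOG00000024629), with the hydratase and hydroxyacyl-CoA dehydrogenase activities, stood at 164.4, 178.1, 114.9 and 154.5 CPM in Sirt6-Ctrl and at 106.9, 92.5, 106.9 and 116.1 CPM in Sirt6-KD. S3 was the Sirt6-Ctrl library that fell among those of Sirt6-KD, just under S8. Means were 153.0 ± 27.2 and 105.6 ± 9.74 CPM (SD, n = 4), and the log2 fold change was -0.53 ± 0.15 (SE, interval -0.87 to -0.20). This passed the adjusted p (edgeR's quasi-likelihood test, 0.0309) but not the fold threshold, at 1.45-fold. It was -0.34 without S1 and S2 (interval -0.67 to -0.0088), with an adjusted p of 0.151 in the same test. Leaving out S3 alone gave a call (-0.65, adjusted p = 0.00395 in edgeR's quasi-likelihood test), while the adjusted p passed 0.05 when S1 (0.0857), S2 (0.0590), S5 (0.0817), S6 (0.105), S7 (0.0818) or S8 (0.0575) was left out.

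Hadhb (ENSRNOG00000010800), with the thiolase activity, stood at 174.3, 156.7, 130.3 and 132.2 CPM in Sirt6-Ctrl and at 153.1, 141.2, 134.8 and 147.7 CPM in Sirt6-KD. All Sirt6-KD libraries lay inside the Sirt6-Ctrl range. The log2 fold change was -0.04 (interval -0.33 to 0.25, edgeR's quasi-likelihood test, adjusted p = 0.852), and 0.15 (interval -0.10 to 0.39) without S1 and S2.

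The subunits were also compared within each library, where scaling cancels. The ratio of Hadha to Hadhb counts was 0.943, 1.14, 0.881 and 1.17 in S1 to S4 and 0.698, 0.655, 0.793 and 0.786 in S5 to S8. Every Sirt6-KD library had a lower ratio than every Sirt6-Ctrl library, with means of 0.733 ± 0.0677 and 1.03 ± 0.142 (SD, n = 4). The two-sided exact permutation test gave p = 0.0286, the smallest it can give, and 0.114 after Benjamini-Hochberg adjustment over the 4 ratios computed, which does not pass. With S1 and S2 left out the means were 0.733 and 1.02, in a design whose smallest p is 0.133. Leaving out libraries cannot make separate groups overlap.

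The other ratios compared enzymes of neighbouring steps or chain lengths. The ratio of Acadl to Acadm was 2.84 ± 1.28 in Sirt6-Ctrl and 4.93 ± 0.963 in Sirt6-KD (two-sided exact permutation test, p = 0.0571, adjusted 0.114). That of Acadvl to Acadm was 1.05 ± 0.370 and 1.93 ± 0.442 (p = 0.0857 in the same exact test, adjusted 0.114). In both, S2 was the Sirt6-Ctrl library that reached into the range of Sirt6-KD, and neither difference between chain lengths passed. Leaving out S2, the only library that overlapped, must separate the groups. Without S1 and S2 the ranges of Acadl to Acadm were 1.67 to 2.88 against 3.53 to 5.59. Those of Acadvl to Acadm were 0.872 to 0.957 against 1.52 to 2.37, in the same design whose smallest p is 0.133. The ratio of Cpt1a to Cpt2 was 2.69 ± 1.55 and 3.12 ± 0.699 (exact permutation test, p = 0.657), with S2 at 0.853 and S4 at 4.64 as the extremes. Its means without S1 and S2 were 3.62 in Sirt6-Ctrl and 3.12 in Sirt6-KD, so the order turned.

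**Figure D3:**
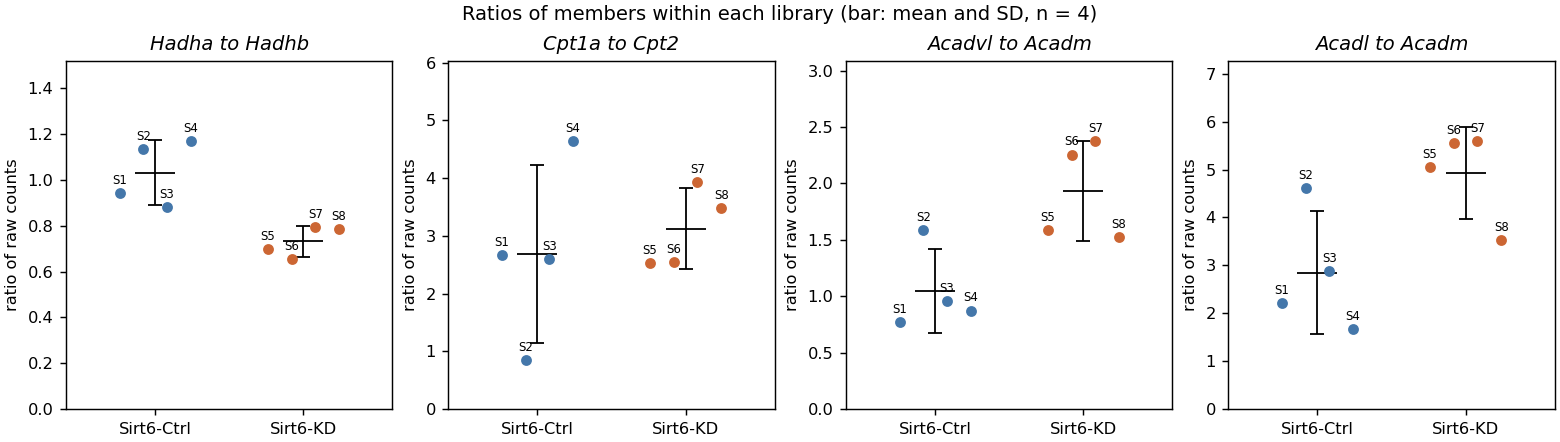
Ratios of raw counts of member pairs within each library, on axes that start at 0, with Sirt6-Ctrl in blue, Sirt6-KD in orange, horizontal lines at the means and bars for the SD over 4 libraries. Hadha to Hadhb is at most 0.793 in Sirt6-KD and at least 0.881 in Sirt6-Ctrl, whereas the other 3 ratios overlap between the groups.

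Ppara (ENSRNOG00000021463), the receptor, was low in all libraries and had at most 4 reads in S1 and S2, the libraries that stand apart. Its raw counts were 0, 4, 56 and 70 in S1 to S4 and 84, 100, 125 and 107 in S5 to S8, which is 0, 0.124, 1.65 and 1.70 CPM against 2.43, 2.99, 3.26 and 3.17 CPM. A count of 0 in S1 allows a level of up to 0.0862 CPM. The groups did not overlap, as was so for 14.8% of all genes in this direction. S3 and S4 lay between S1 and S2 on the low side and all libraries of Sirt6-KD. The log2 fold change was 1.76 with an SE of 1.08 (interval -0.63 to 4.16, edgeR's quasi-likelihood test, adjusted p = 0.268) and was not called. Without S1 and S2 it was 0.83 ± 0.38 (SE, interval -0.03 to 1.70, adjusted p = 0.175 in the same test). By limma-voom it was 3.36 (adjusted p = 0.0539), and scaled by spike-ins 2.22, which is 1.27 above the median of all genes. Of the other PPAR genes, counted below as regulators, Ppard had means of 60.4 CPM for Sirt6-Ctrl and 44.7 CPM in Sirt6-KD (-0.43). Pparg had means of 3.42 and 6.18 CPM (0.85). Neither was called, with or without S1 and S2. Which of these receptors acts on the PPAR target genes below was not tested.

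The genes most like each member were found by the root mean square difference of log2 CPM, centred on each gene's mean, over the 8 libraries. For Cpt1a they were Ccdc39 (0.129) and Pygb (0.144), and for Acadvl H3f3a (0.0867) and Krcc1 (0.0923). For Acadm they were Spryd3 (0.112) and Asb8 (0.123), and for Hadha the cargo receptor gene Lman2 (0.0477) and Ergic3 (0.0606). Hadhb was closest to Cdk10 (0.0456) and Coro1b (0.0532), and Acadl to Spg21 (0.0456) and Rad17 (0.0665). Cpt2 was closest to 2 ribosomal protein genes, Rps27a (0.0846) and Rpl22 (0.0857). No member was among the 2 nearest genes of another, and the closest pair of members was Acadl and Hadhb (0.174). Whether members vary together was not tested. For Ppara, with few reads in S1 and S2, the nearest, Phlpp2 (0.342) and AABR07062138.2 (0.376), were farther off.

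Around these genes, 7 lists of the wider pathway held 81 symbols, of which 67 were tested. Of the 67, 7 were called lower and 5 higher, a share of 10.4% and 7.46%, and their median log2 fold change was -0.10. The counts were 4 lower and 3 higher without S1 and S2. These shares were close to those of all genes, 10.7% lower and 8.02% higher. Without S1 and S2, 5% of all genes were called lower and 5.71% higher. The same shares of all genes stand beside the counts of each list below. The 47 tested genes not picked by the naming rule given with the processing ran from -0.89 to 2.30, 27 of them below 0. Fabp4, Ucp2, Vnn1, Ppard and Pparg are among the 47, although they are named in the text. The smallest adjusted p of the 47 was 0.0537 (edgeR's quasi-likelihood test).

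Of 10 tested genes of uptake and activation, 1 was called lower and none higher, with a median of 0.26. With S1 and S2 left out, Acsl3 was still called lower and Fabp4, a fatty acid carrier of adipocytes with at most 3.46 CPM, was called higher (2.64, edgeR's quasi-likelihood test, adjusted p = 0.0397, against 0.48 and 0.713 with all libraries), and the median was 0.21. Acsl3, an acyl-CoA synthetase of the endoplasmic reticulum and lipid droplets, stood at 63.4, 64.6, 64.3 and 58.6 CPM in Sirt6-Ctrl and at 24.7, 31.0, 41.9 and 23.4 CPM in Sirt6-KD. The Sirt6-Ctrl libraries were close together and all above Sirt6-KD. It fell by 1.05 on the log2 scale (SE 0.19, edgeR's quasi-likelihood test, adjusted p = 0.00645), and by 1.01 without S1 and S2 (adjusted p = 0.0222). Fabp5, a fatty acid carrier, and Acsl4, the synthetase that prefers arachidonic acid, were at 0.49 and 0.30 and were not called, nor were they without S1 and S2 (0.94 and 0.24). None of the 5 other genes of the carnitine shuttle was called, with or without S1 and S2 (median -0.28 and -0.25). Slc25a20, the carnitine and acylcarnitine carrier, was at -0.52 (edgeR's quasi-likelihood test, adjusted p = 0.0820) and -0.25 without S1 and S2, and when single libraries were left out it reached a call only without S3 (-0.69, 0.00604). Cpt1b, the muscle isoform of CPT1, was at -1.25 with levels of 2.87 ± 1.201 and 1.202 ± 0.529 CPM (adjusted p = 0.152 in the same test), and Cpt1c and Crat were at 0.09 and -0.02. Leaving out S1 and S2 gave -1.36 for Cpt1b, 0.38 for Cpt1c and 0.061 for Crat.

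Of the 15 other tested genes of mitochondrial beta-oxidation, 1 was called lower and 1 higher, with a median of -0.09 (-0.05 without S1 and S2). Hadh, the hydroxyacyl-CoA dehydrogenase for medium and short chains, stood at 25.7, 18.8, 15.4 and 16.5 CPM in Sirt6-Ctrl and at 5.73, 6.72, 6.83 and 8.55 CPM in Sirt6-KD. The groups were far apart, and Hadh fell by 1.46 on the log2 scale (SE 0.24, edgeR's quasi-likelihood test, adjusted p = 0.00499), with -1.19 (0.0122) without S1 and S2. Acadsb, the short branched-chain acyl-CoA dehydrogenase, which also serves isoleucine breakdown, stood at 4.42, 4.36, 20.02 and 15.2 CPM in Sirt6-Ctrl and at 33.5, 38.7, 33.2 and 36.3 CPM in Sirt6-KD. S1 and S2 were the lowest libraries, and S3 and S4 lay between them and Sirt6-KD. Acadsb rose by 1.69 (SE 0.46, adjusted p = 0.0264 in edgeR's quasi-likelihood test), and by 1.02 (0.00974) without S1 and S2. Its call was lost when S1, S5, S6, S7 or S8 was left out alone, with adjusted p from 0.0595 to 0.0700 and log2 fold changes from 1.44 to 1.72.

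Of 10 tested genes of peroxisomal beta-oxidation, which shortens very long and branched chains, 2 were called lower and none higher, with a median of -0.32 (1 lower and -0.33 without S1 and S2). Scp2, whose longer product is the peroxisomal thiolase for branched chains, was at 94.6 ± 21.3 CPM for Sirt6-Ctrl and 46.5 ± 10.8 CPM in Sirt6-KD. It fell by 1.02 on the log2 scale (edgeR's quasi-likelihood test, adjusted p = 0.0100), and by 0.89 (0.0432) without S1 and S2. Abcd3, a peroxisomal membrane transporter, was at 53.7 ± 16.4 and 30.3 ± 6.35 CPM, and fell by 0.82 (0.0328 in the same test). Without S1 and S2 it was at -0.76 (adjusted p = 0.0614 in edgeR's quasi-likelihood test), and its call was also lost when S2, S4, S5, S6 or S7 was left out alone, with values from -0.87 to -0.64.

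Of 15 tested regulators of oxidation, 2 were called lower and 2 higher, with a median of -0.10 (1, 1 and -0.09 without S1 and S2). Rxra, the partner of PPARα and of several other nuclear receptors, stood at 20.3, 11.9, 28.9 and 20.2 CPM in Sirt6-Ctrl and at 43.6, 40.6, 55.0 and 43.9 CPM in Sirt6-KD. All Sirt6-KD libraries were above all of Sirt6-Ctrl, and Rxra rose by 1.17 (SE 0.25, edgeR's quasi-likelihood test, adjusted p = 0.0106), with 0.91 (0.0207) without S1 and S2. Lpin1, a phosphatidate phosphatase that also acts with PGC-1α and PPARα in the nucleus, stood at 34.2, 18.7, 34.0 and 25.9 CPM and at 5.88, 16.2, 9.23 and 8.91 CPM. It fell by 1.49 (SE 0.32, adjusted p = 0.0116 in edgeR's quasi-likelihood test), and the lowest Sirt6-Ctrl library, S2, lay just above the highest of Sirt6-KD, S6. The value was -1.57 (0.0209) without S1 and S2. Mlycd, which degrades the CPT1 inhibitor malonyl-CoA, fell by 0.92 (0.0175 in the same test), and Nrip1, a corepressor of nuclear receptors, rose by 0.63 (0.0444). Neither call held without S1 and S2 (-0.59 with 0.0818 and 0.49 with 0.0952). The Mlycd call was also lost when S1, S6 or S7 was left out alone (-0.90 to -0.74), and that of Nrip1 without S1, S4, S5, S6, S7 or S8 (0.56 to 0.70).

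Of 8 tested PPAR target genes, 1 (12.5%) was called lower and 2 (25%) higher, against 10.7% and 8.02% of all genes. Their median was 1.10, against -0.016 over all genes, and without S1 and S2 it was 0.64 with no call. Of the 8, 3 were below 0. The median rests in part on Ucp2 (2.15) and Vnn1 (1.33), which were not called and had low levels. Ucp2 had means of 0.234 CPM for Sirt6-Ctrl and 1.07 CPM in Sirt6-KD, and Vnn1 0.590 and 1.48 CPM. Plin2, the lipid droplet coat protein, stood at 194, 319, 483 and 93.0 CPM in Sirt6-Ctrl and at 723, 703, 778 and 546 CPM in Sirt6-KD. The Sirt6-Ctrl libraries were widely spread and all below Sirt6-KD. Plin2 rose by 1.34 (SE 0.40, edgeR's quasi-likelihood test, adjusted p = 0.0369), and Angptl4, an inhibitor of lipoprotein lipase, rose by 1.28 (SE 0.34, adjusted p = 0.0242), from 10.1 ± 4.13 to 24.6 ± 7.43 CPM. Without S1 and S2 they were at 1.26 (0.139) and 0.93 (0.0634). Acot2, a mitochondrial acyl-CoA thioesterase, fell by 0.70 (adjusted p = 0.0323 in edgeR's quasi-likelihood test), and was at -0.42 (0.177) without S1 and S2. Each of these calls was also lost in leaving out single libraries: Plin2 without S1, S5, S6, S7 or S8 (1.23 to 1.47), Angptl4 without S1, S5, S6 or S7 (1.08 to 1.34), and Acot2 without S1, S2, S5, S6, S7 or S8 (-0.79 to -0.56).

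None of 4 tested ketone body enzymes was called, with a median of -0.03 (-0.05 without S1 and S2). Oxct1, which uses ketone bodies, was at 0.63, or 0.21 without S1 and S2, and of the fits without a single library only that without S3 called it (0.87, adjusted p = 0.0216 in edgeR's quasi-likelihood test), and Bdh1 was at -0.17, or -0.41 without S1 and S2.

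**Figure D4:**
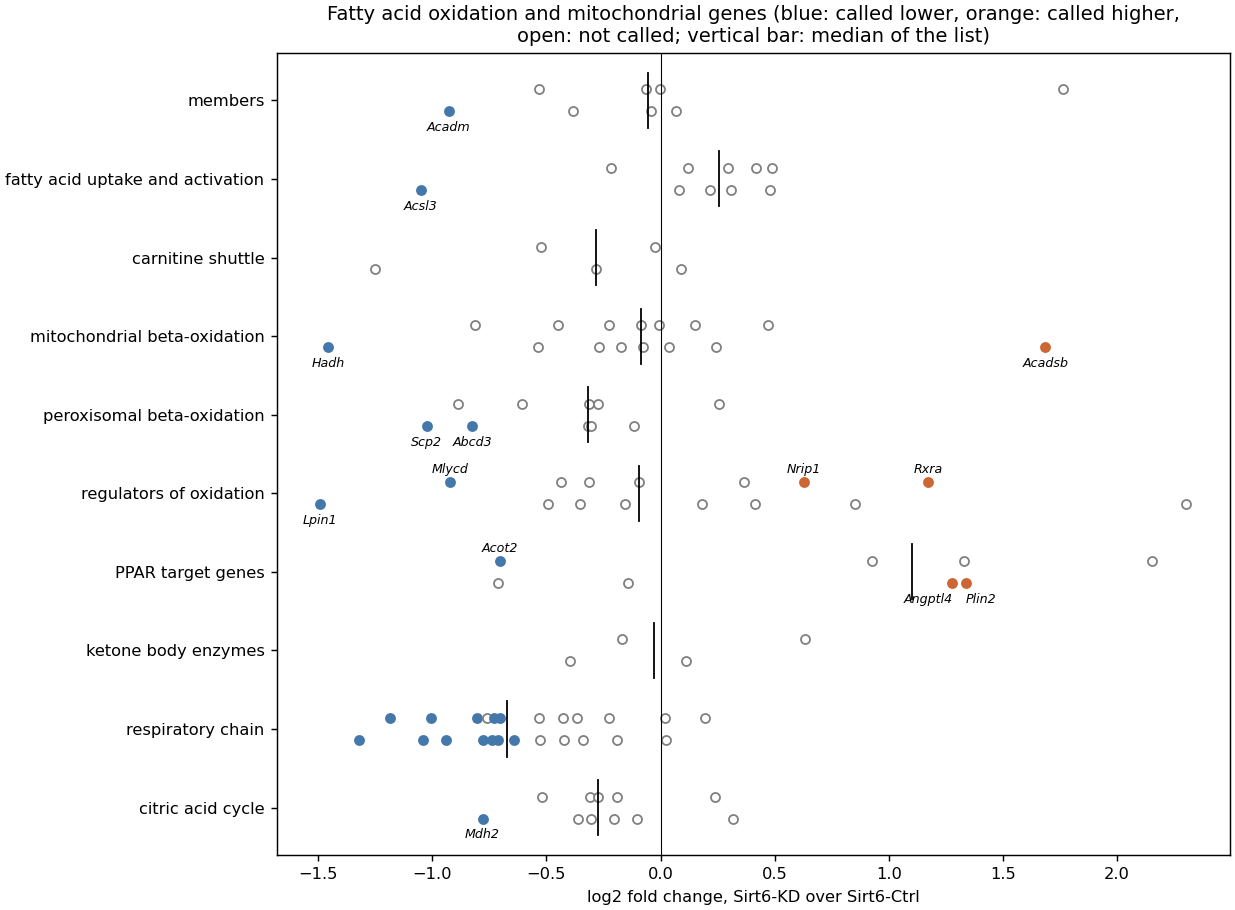
Log2 ratio of Sirt6-KD to Sirt6-Ctrl (all 8 libraries) of every tested gene of the members, the 7 pathway lists, the respiratory chain and the citric acid cycle, 1 point per gene. Filled blue points were called lower, filled orange points higher, open points not called, and the vertical bar is the median of the list. Medians were -0.05 for the members, -0.67 for the respiratory chain and 1.10 for the PPAR targets, which include Ucp2 and Vnn1 at low levels.

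Related mitochondrial and lipid pathways were counted in the same way. Of 24 tested subunit genes of the respiratory chain, 12 were called lower and none higher, with a median of -0.67, against 10.7% and 8.02% of all genes. Without S1 and S2, 2 of the 24 were called lower and the median was -0.26, against 5% of all genes. Of 11 genes of the citric acid cycle 1, the malate dehydrogenase gene Mdh2, was called lower (-0.78), and it was not called without S1 and S2 (-0.40, edgeR's quasi-likelihood test, adjusted p = 0.0823). Of 10 genes of fatty acid synthesis, the opposing pathway, 5 were called lower and 1 higher (5 and 0 without S1 and S2). Differences between these lists and the oxidation genes were not tested.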

How the data were processed

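RNA-seq of 8 libraries of primary rat NP cells was used, with groups taken from the sample labels. The authors deposited unnormalized read counts in 32975 rows, 1 for each Ensembl gene and, in 92, each ERCC spike-in. The submitters' processing notes name Trimmomatic 0.36, STAR 2.5.2b, featureCounts of Subread 1.5.2, DESeq2 and the build Rnor 6.0. The authors also deposited a table of 13612 rows with a normalized signal per library and their own log2 fold change, p-value and adjusted p-value, which were not used. From this table only gene names were taken. Its rows are those whose 8 counts sum to more than 80.

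Rows passing filterByExpr (13313, of which 63 were spike-ins) were scaled with TMM factors, then tested in edgeR 4.0.16 under R 4.3.3 (glmQLFit and glmQLFTest), two-sided, unpaired, with Benjamini-Hochberg adjustment over all rows. Calls needed an adjusted p under 0.05 and a fold difference over 1.5, the study's thresholds. Ratios were compared with exact permutation tests (scipy 1.17.1). Intervals of fold changes are 95% intervals from the same fit. The upper limit for a count of 0 is 3 counts and covers counting error only, since the reads carry no molecular identifiers and need not be independent. p-values measure the spread between the cultures, whose independence rests on the study's statement.

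The members, gene lists and tests were chosen with earlier results of these data known, and the motifs after the promoter sequences were seen. Named were the members, Sirt6, Cpt1b, Cpt1c, each called gene of the pathway lists, the 2 tested genes of highest mean CPM in each list with fewer than 2 calls, and the 2 genes of nearest profile to each member. Fabp4, Ucp2, Vnn1, Ppard, Pparg, Mdh2 and the marker genes were named after their values were seen. A gene of the lists is not reported here and was left out of the list counts. Alternatives were DESeq2 1.42.0, limma-voom (limma 3.58.1), other filters and scalings, and leaving out libraries. The fit was tested on simulated data.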

Additional observations from a re-analysis of the deposited data

Results flagged for a closer look

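In 70 groups of 4 libraries (29 genes, which are Sirt6, the members and the named pathway genes, with 4 count ratios, the total count and the spike-in share, in each group), the gap between the extreme library and its nearest neighbour, as a share of the range, was compared with Dixon's critical value for 95% confidence. This flags about 1 group in 20 by chance, or 3.5 here, and 1 was found. Crat, carnitine acetyltransferase, was highest in S8 among Sirt6-KD (52.2 CPM, gap share 0.961), where the other 3 libraries lay at 44.9 to 45.2 CPM.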

How the results depend on the processing

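No paired analysis was possible because neither the labels nor the columns say which Sirt6-KD and Sirt6-Ctrl libraries share a rat, although the series describes a control for each knockdown. With 4 libraries per group and intervals as wide as those given, genes that were not called may still differ. Other size factors, filters, DESeq2 and limma-voom left the count of members called lower at 1. It was 2 with no fold threshold and ran from 0 to 2 with single libraries left out. Over all genes, DESeq2 called 1734 lower and 1606 higher, the fit without S1 and S2 709 and 810, and fits without single libraries 700 to 1913 and 445 to 1699.

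Scaled by spike-ins, no member was called lower (0), nor was any pathway gene in either direction (0 and 0). The comparison lists (respiratory chain, citric acid cycle, fatty acid synthesis) then gave 1 lower and 0 higher. Under this scaling log2 fold changes turned sign for Cpt2 (0.83), Acadl (1.04), Acadm (0.0041), Acadvl (1.03), Hadha (0.52), Hadhb (0.99), Slc25a20 (0.56), Crat (0.98), Abcd3 (0.20), Scp2 (0.014), Mlycd (0.17), Acot2 (0.38) and Bdh1 (0.64), where the median of all genes was 0.94. Relative to that median, 9 of these 13 kept their sign (Acadm -0.94, Scp2 -0.93, Hadha -0.42), and Acadl, Acadvl, Hadhb and Crat, at 0.033 to 0.091, did not.

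Without S1 and S2, pathway genes gave 4 lower and 3 higher and the comparison lists 7 and 0. Signs turned for Cpt1a (-0.065), Cpt2 (0.14), Acadl (0.22), Acadvl (0.13), Hadhb (0.15) and Crat (0.061). Values near 0 also turned for Acadvl with DESeq2 (0.016), its size factors in edgeR (0.017), limma-voom (0.0056), no count filter (0.038), a filter on the sum of counts (0.039) and spike-in rows removed (0.030), and for Crat with the last 3 (0.015, 0.016 and 0.0072). The causes were not tested.

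With single libraries left out, pathway genes called lower ran from 4 to 11 and higher from 1 to 8, and comparison genes from 6 to 21 and 0 to 2. Values that crossed 0 ran from -0.10 to 0.24 for Cpt1a, -0.18 to 0.11 for Acadl, -0.10 to 0.11 for Acadvl, -0.10 to 0.075 for Hadhb, -0.12 to 0.032 for Crat and -0.031 to 0.20 for Cpt1c. The ratio of Cpt1a to Cpt2 differed by -0.18 (without S2) to 1.09. That of Hadha to Hadhb differed by -0.35 to -0.25 and the spike-in share by -4.09 to -1.82 percentage points. A permutation test of 4 libraries against 3 cannot pass 0.05, so these were judged by size alone.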
